A study of Mus musculus with 4 samples.

Results

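The genes described here are 32 mouse genes of glycolysis, mTORC1 signalling, and nutrient uptake, examined for the binding of JunB, BATF, and IRF4 in activated regulatory T (Treg) cells. They were taken by name from a list, and all 32 were found among the 22380 protein-coding genes of the annotation. A peak was assigned to a gene when its centre lay within 20 kb of an annotated transcription start site (TSS) of that gene, and 91 other genes of the same pathways were counted in the same way. In chromatin immunoprecipitation-sequencing (ChIP-seq), an antibody pulls down a protein with the DNA it binds, and places rich in sequenced fragments are called as peaks. The study compared 4 libraries, 1 per condition, of CD4+CD25+ Treg cells from spleens of C57BL/6 mice. All cells were activated for 60 h with antibodies against CD3 and CD28 together with IL-2. *Junb*-sufficient cells gave the JunB, BATF, and IRF4 libraries, and *Junb*-deficient cells gave a further IRF4 library, to ask whether IRF4 needs JunB at its sites.

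The sources differ on the genotypes. The labels give Foxp3cre JUNB+/+ and Foxp3cre JUNBFl/Fl, in which Cre is driven from the Treg cell gene *Foxp3*. For ChIP-seq, the study instead names *Junb* fl/fl mice with or without a *Cd4*-driven Cre, which acts in all T cells. Effects of deletion in Treg cells alone and in all T cells therefore cannot be told apart, and the groups are called *Junb*-sufficient and *Junb*-deficient. For *Junb*-sufficient cells, the antibody named in the labels is IRF4 for the library titled BATF and the reverse, and the titles were followed. No JunB list of *Junb*-deficient cells was analysed here, so loss of JunB could not be checked in these lists. Peak lists hold no marker levels by which the sort could be checked.

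Glycolysis converts glucose to pyruvate and lactate, and activated lymphocytes raise glucose uptake and lactate output. mTORC1 is a kinase complex that senses amino acids and growth signals and drives protein and lipid synthesis, and the transcription factors HIF-1 and SREBP act downstream of it. In T cells, JunB and BATF are members of the AP-1 family that bind DNA as dimers, and IRF4 binds together with them at composite elements called AICE (AP-1-IRF composite elements).

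The JunB list held 29659 peaks, the BATF list 13570, the *Junb*-sufficient IRF4 list 31093, and the *Junb*-deficient IRF4 list 29033. The recorded totals ran from 21127029 to 27399986 tags (aligned reads). At the median, peaks spanned 151 bp in the JunB list and 605 or 613 bp in the others. JunB peaks needed 10 tags, the others 19. The requirement of 4-fold more tags than in the surrounding 10 kb removed 5.25% of the putative JunB peaks and 36.2% to 37.4% of those in the other lists. Counts of JunB peaks are therefore not comparable with those of the other factors. The lists give positions and no heights. The order of a list served as a rank and is given as a place, the first place being taken as the strongest. Each place is a description without error.

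To show what the sites look like, the reference sequence (mm9, plus strand) is given for the highest-placed JunB peak of each role that overlapped BATF and IRF4, and for the JunB peaks of *Hk2*, *Slc7a5*, and *Rps6kb1*, whose IRF4 peak was not listed in *Junb*-deficient cells. The *Slc7a5* peak belongs to both sets. No such peak existed for the SREBP genes. Capitals mark the AP-1 element TGANTCA, and in *Hif1a* the element TGACGTCA (CRE), which was searched for only after this sequence had been seen.
Hif1a, chr12:74989113-74989263: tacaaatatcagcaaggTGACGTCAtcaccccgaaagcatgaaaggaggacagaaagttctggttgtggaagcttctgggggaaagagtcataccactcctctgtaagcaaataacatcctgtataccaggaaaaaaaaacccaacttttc
Rheb, chr5:24329797-24329947: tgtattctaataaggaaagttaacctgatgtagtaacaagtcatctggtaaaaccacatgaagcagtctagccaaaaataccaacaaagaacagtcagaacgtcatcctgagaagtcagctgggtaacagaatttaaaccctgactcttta
Pfkp, chr13:6652014-6652164: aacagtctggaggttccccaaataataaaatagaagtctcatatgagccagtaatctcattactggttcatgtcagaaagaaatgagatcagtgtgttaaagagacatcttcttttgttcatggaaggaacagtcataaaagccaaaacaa
Pgam1, chr19:41969507-41969657: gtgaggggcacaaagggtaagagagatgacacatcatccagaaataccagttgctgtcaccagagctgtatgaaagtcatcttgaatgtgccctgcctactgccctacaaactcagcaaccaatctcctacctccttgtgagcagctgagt
Slc2a3, chr6:122708856-122709006: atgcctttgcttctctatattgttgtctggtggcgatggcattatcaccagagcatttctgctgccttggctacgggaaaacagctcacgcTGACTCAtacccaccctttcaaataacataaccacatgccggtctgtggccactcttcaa
Slc7a5, chr8:124430431-124430581: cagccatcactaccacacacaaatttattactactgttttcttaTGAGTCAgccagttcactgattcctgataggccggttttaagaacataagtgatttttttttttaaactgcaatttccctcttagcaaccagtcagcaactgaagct
Hk2, chr6:82719802-82719952: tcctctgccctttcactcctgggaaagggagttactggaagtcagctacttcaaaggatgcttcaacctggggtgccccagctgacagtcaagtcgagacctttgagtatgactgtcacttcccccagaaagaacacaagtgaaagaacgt
Rps6kb1, chr11:86320258-86320408: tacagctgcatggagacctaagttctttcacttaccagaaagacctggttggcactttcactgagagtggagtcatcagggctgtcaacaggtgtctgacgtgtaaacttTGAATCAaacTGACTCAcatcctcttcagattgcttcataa
The *Hif1a* and *Pfkp* peaks lay in intergenic DNA, the *Rheb*, *Slc2a3*, *Slc7a5*, and *Hk2* peaks in introns of these genes, and the *Rps6kb1* peak overlapped an exon outside the annotated untranslated regions. The *Pgam1* peak lay in an intron of the neighbouring *Rrp12*, 16779 bp upstream of the *Pgam1* TSS and 1061 bp from a TSS of *Rrp12*.

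Of the 8 sequences, those of *Slc2a3* and *Slc7a5* held 1 AP-1 element and that of *Rps6kb1* held 2. Both elements of *Rps6kb1* and the 1 of *Slc7a5* stood under an IRF4 peak that was listed only in *Junb*-sufficient cells. That absence was a rule by which these sequences were chosen, and the *Hk2* sequence, chosen by the same rule, held no AP-1 element. Over all JunB peaks at the 32 genes, 20 of 53 held TGANTCA within 75 bp of the centre (37.7%, exact 95% interval 24.8 to 52.1%), beside 28.5% of all JunB peaks. It was found in 10 of the 34 BATF peaks (29.4%, interval 15.1 to 47.5%), beside 40.7% of the BATF list. It was found in 18 of the 74 *Junb*-sufficient IRF4 peaks (24.3%, interval 15.1 to 35.7%), beside 30.0% of that list. Of these 74, it was held by 7 of the 23 listed only in *Junb*-sufficient cells (30.4%, interval 13.2 to 52.9%), beside 36.6% of all such peaks. Of the 51 listed in both genotypes, 11 held it (21.6%, interval 11.3 to 35.3%), beside 26.5%. Among the JunB peaks that overlapped BATF and IRF4 the count was 10 of 21 (47.6%), beside 47.0% of all such peaks. Among those that overlapped neither it was 7 of 26 (26.9%, interval 11.6 to 47.8%), beside 15.7%. AICE was searched for as TGANTCA directly preceded by GAAA, or preceded by TTTC with 4 bases between, on both strands, so that every AICE match contains an AP-1 match. None of the 53 JunB peaks matched (0%, interval 0 to 6.72%), beside 2.42% of all JunB peaks. The interferon-stimulated response element, GAAA, 2 bases, and GAAA, was found in 3 of the 53 (5.66%), beside 5.09%. They lay at *Hk2*, *Ldha*, and *Rictor*. CRE matched in the *Hif1a* peak and in 0.246% of all JunB peaks. The intervals of AP-1, AICE, and the response element in the 53 peaks included the shares of the whole list, and a match to letters is not a test of binding. Exact intervals here and below are Clopper-Pearson intervals of the number of peaks, and they leave out how cell preparations vary.

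All 32 genes had a peak in at least 1 library, and 16 had peaks of all 3 factors in *Junb*-sufficient cells. Shares of all protein-coding genes are not given for these counts. JunB peaks lay at 21 of the 32 genes (65.6%), beside 42.1% of all protein-coding genes. BATF peaks lay at 20 (62.5%), beside 30.2%. IRF4 peaks lay at 30 (93.8%) in *Junb*-sufficient cells, beside 60.3%, and at 30 in *Junb*-deficient cells, beside 59.8%. A JunB peak that overlapped both BATF and IRF4 by at least 1 bp, called a triple site below, was present at 15 (46.9%), beside 20.0%. Each count given with a share of all genes stood above that share. The 32 genes have more annotated TSSs (median 4.5, beside 2) and wider windows (median 51.3 kb, beside 40.1 kb). Per 100 kb of window, the genes held 2.64 JunB peaks (all protein-coding genes 1.60), 1.69 BATF peaks (0.853), 3.68 *Junb*-sufficient IRF4 peaks (2.15), and 3.43 *Junb*-deficient ones (2.05). With only the 5′-most TSS of each gene, JunB peaks lay at 59.4% of the 32 genes and 37.7% of all, and triple sites at 40.6% and 16.9%. With each peak given to its nearest gene alone, the shares were 56.2% and 31.6% for JunB, and 40.6% and 14.9% for triple sites. The background holds genes whether or not Treg cells express them, and the part of expression in these differences was not tested.

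**Figure D1:**
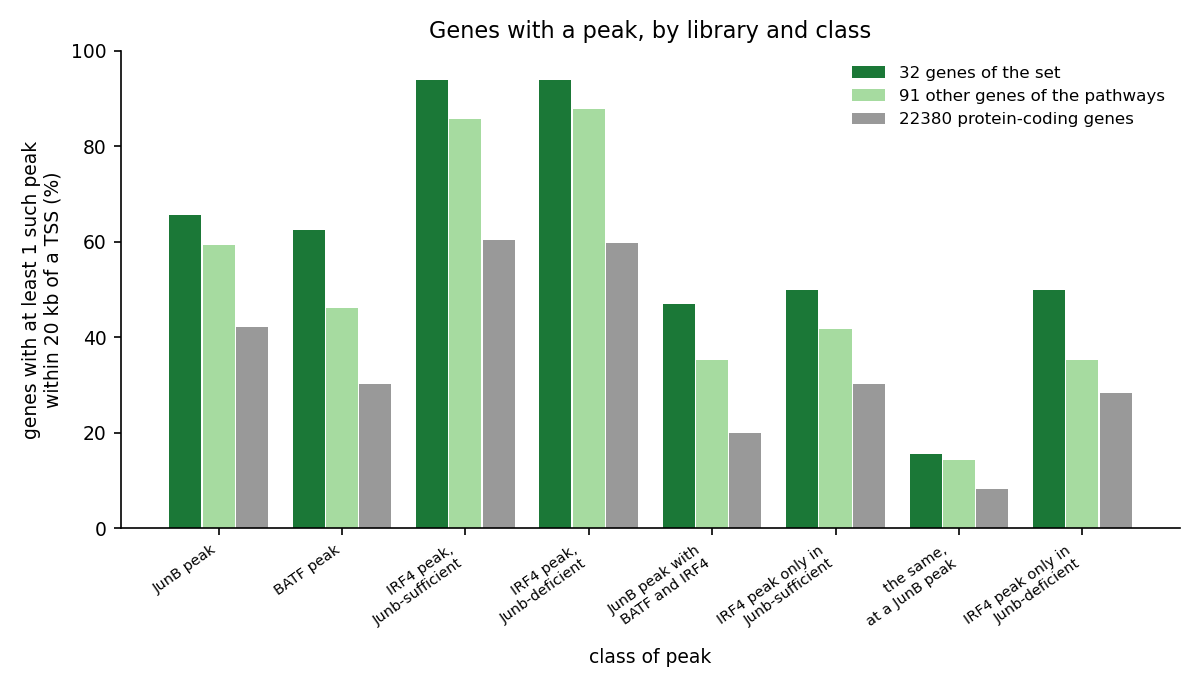
Share of genes (%, vertical axis) with at least 1 peak of each class within 20 kb of a TSS (horizontal axis), for the 32 genes, the 91 other genes of the pathways, and all 22380 protein-coding genes. The bars of the 32 genes are the highest in each of the 8 classes, from 93.8% for IRF4 peaks to 15.6% for IRF4 peaks at JunB that were listed only in *Junb*-sufficient cells.

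The other 91 genes of the pathways, which the 32 do not include, also stood above the background. JunB peaks lay at 54 of them (59.3%), BATF peaks at 42 (46.2%), IRF4 peaks at 78 (85.7%) and 80 (87.9%) in *Junb*-sufficient and *Junb*-deficient cells, and triple sites at 32 (35.2%). Within this list, triple sites lay at 8 of 29 genes of glycolysis and pyruvate use (27.6%), 14 of 36 genes of mTORC1 and its inputs (38.9%), 5 of 12 genes of amino acid and iron uptake (41.7%), and 5 of 14 genes of sterol and fatty acid synthesis (35.7%). *Depdc5*, a subunit of the GATOR1 complex that restrains mTORC1 when amino acids are scarce, had 3 triple sites, the largest number in the list.

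The peaks at the 32 genes were 53 distinct JunB, 34 BATF, 74 *Junb*-sufficient IRF4, and 69 *Junb*-deficient IRF4 peaks. Of the 53 JunB peaks, 21 overlapped BATF and IRF4 (39.6%, interval 26.5 to 54.0%), beside 33.9% of the JunB peaks at all protein-coding genes. IRF4 alone was overlapped by 6 (11.3%, beside 15.1%), BATF alone by 0 (beside 3.43%), and 26 overlapped neither (49.1%, beside 47.5%). Of the 34 BATF peaks, 21 overlapped JunB and IRF4 (61.8%, beside 63.9%), 9 IRF4 without JunB (26.5%, beside 24.1%), and 4 neither (11.8%, beside 7.05%). The overlap classes of JunB and of BATF peaks thus stood close to those at other genes, and every interval for them included the background share. The JunB peaks spread over their list as those elsewhere did, with a median place 48.6% down it (46.3% for all genes). The median place of the BATF peaks was lower, at 64.7% (51.1%). In the first 50% of their list lay 13 of the 34 BATF peaks (38.2%, interval 22.2 to 56.4%), beside 48.7%, which the interval included. JunB peaks lay in introns in 33 of 53 cases, and the share at all protein-coding genes is not given here.

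**Figure D2:**
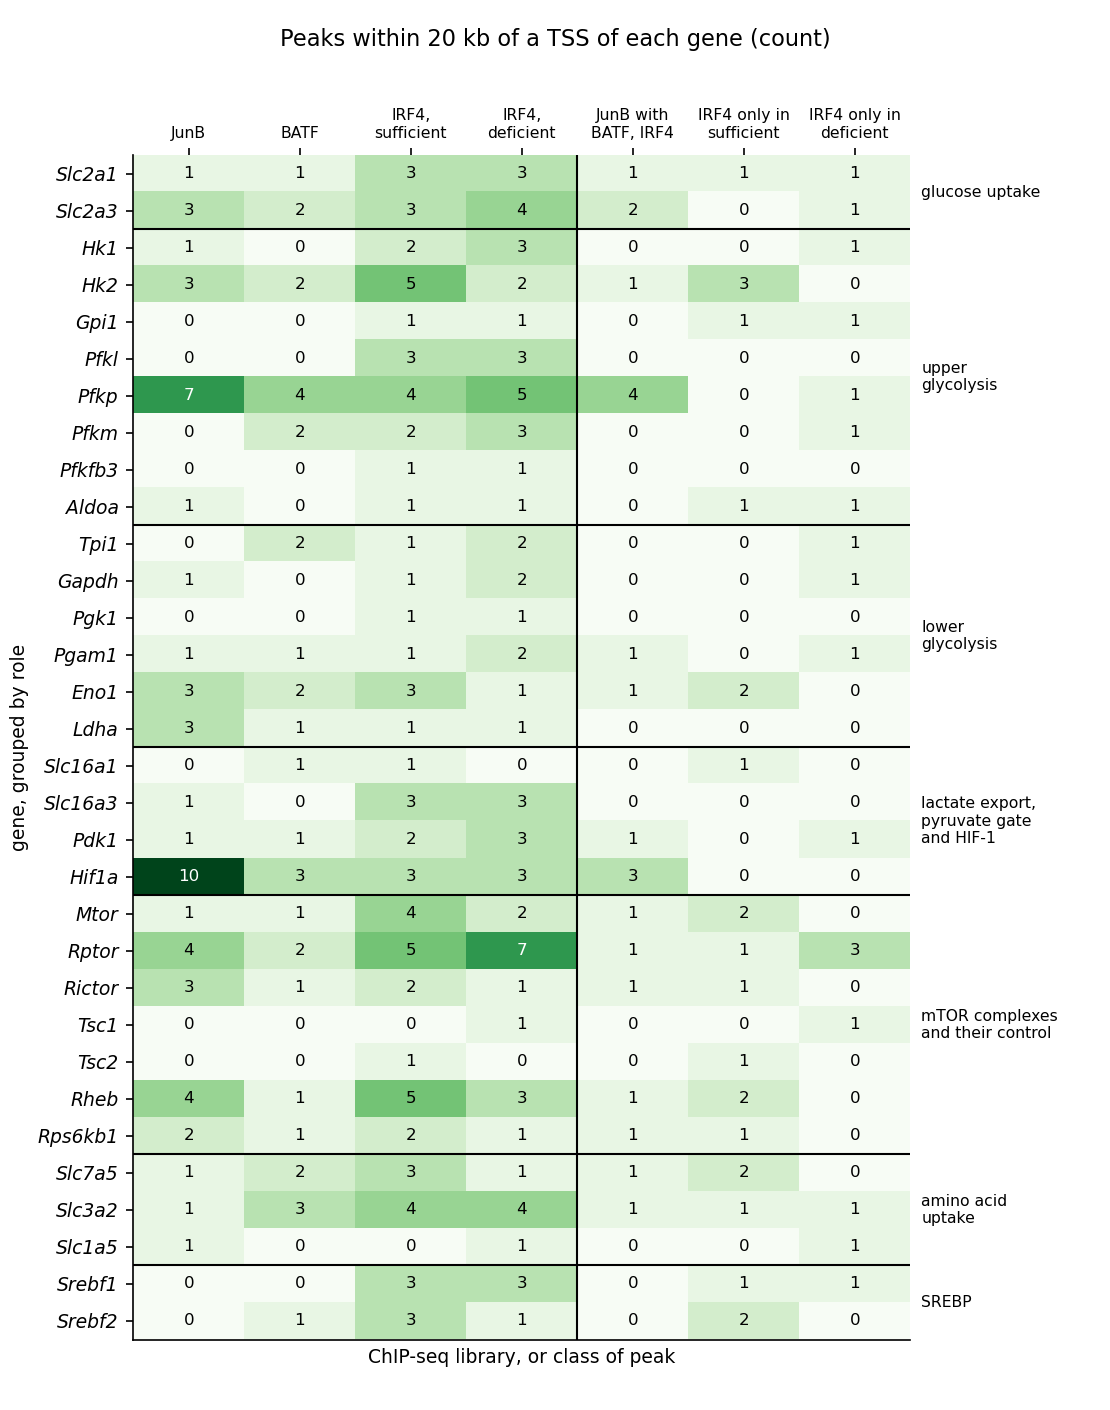
Number of peaks within 20 kb of a TSS for each of the 32 genes (rows, grouped by role) in each library and in 3 overlap classes (columns), darker squares standing for more peaks. *Hif1a* (10) and *Pfkp* (7) have the most JunB peaks, *Pfkp* the most sites shared by the 3 factors (4), *Hk2* the most IRF4 peaks listed only in *Junb*-sufficient cells (3), and *Rptor* the most listed only in *Junb*-deficient cells (3).

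Glucose enters the cell through the transporters GLUT1 and GLUT3, the products of *Slc2a1* and *Slc2a3*. Both genes had triple sites. *Slc2a1* had 1 JunB peak, 1 BATF peak, and 3 IRF4 peaks in each genotype. Its triple site was intronic, and IRF4 stood 38.9% down the *Junb*-sufficient list and 52.4% down the *Junb*-deficient list there. At the *Slc2a1* promoter the lists differed. An IRF4 peak centred 88 bp upstream of the TSS was listed only in *Junb*-sufficient cells, and a peak 2808 bp upstream only in *Junb*-deficient cells, 2720 bp from it. *Slc2a3* had 3 JunB, 2 BATF, 3 *Junb*-sufficient IRF4, and 4 *Junb*-deficient IRF4 peaks. Its IRF4 peaks of *Junb*-sufficient cells were all listed in *Junb*-deficient cells. The triple site 3117 bp upstream of its TSS fell from 19.0% to 46.7% of the IRF4 list, and that in an intron moved from 22.7% to 21.3%.

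Among the genes of upper glycolysis, *Pfkp* had the most peaks of JunB and BATF. It encodes the platelet form of phosphofructokinase, the enzyme that commits glucose to glycolysis. *Pfkp* had 7 JunB, 4 BATF, 4 *Junb*-sufficient IRF4, and 5 *Junb*-deficient IRF4 peaks. Its 4 *Junb*-sufficient IRF4 peaks were all triple sites, a number that 99 of all protein-coding genes (0.442%) reached, in a window of 102 kb with 10 TSSs. All 4 were listed in *Junb*-deficient cells too. At 4066 bp upstream of a TSS, the JunB peak printed above was at place 1005 of 29659, with IRF4 5.04% down the *Junb*-sufficient list and 12.6% down the *Junb*-deficient list. The intronic sites at places 2379, 5009, and 13371 of the JunB list stood at 5.08%, 7.43%, and 6.39% of the *Junb*-sufficient IRF4 list and 13.5%, 11.2%, and 4.93% of the *Junb*-deficient list. Thus 3 of the 4 sites stood lower in *Junb*-deficient cells and 1 higher, and all stayed among the first 15% of the list. An intronic IRF4 peak 1402 bp from a TSS was listed only in *Junb*-deficient cells, 42.2% down.

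The other phosphofructokinase genes had no JunB peak. *Pfkl*, the liver form, had 3 IRF4 peaks in each genotype and no BATF peak, and 1 of them lay at its own TSS. *Pfkm*, the muscle form, had 2 BATF peaks, 2 *Junb*-sufficient IRF4 peaks, and 3 *Junb*-deficient ones. *Pfkfb3*, which makes the phosphofructokinase activator fructose-2,6-bisphosphate, had 1 IRF4 peak 13964 bp upstream. This peak rose from 56.9% of the *Junb*-sufficient list to 26.5% of the *Junb*-deficient list.

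*Hk2* encodes the inducible hexokinase, which traps glucose in the cell. It had 3 JunB, 2 BATF, 5 *Junb*-sufficient IRF4, and 2 *Junb*-deficient IRF4 peaks. Its window spanned 81.5 kb with 4 TSSs, and 540 of all protein-coding genes (2.41%) reached 5 *Junb*-sufficient IRF4 peaks. *Hk2* lacked 3 of its 5 IRF4 peaks in *Junb*-deficient cells, a number that 321 of all protein-coding genes (1.43%) reached. The triple site printed above was 1 of the 3, with an IRF4 peak at chr6:82719591-82720203, place 9829 of 31093, in an intron. The nearest *Junb*-deficient IRF4 peak lay 16589 bp away. Of the other 2, which overlapped no JunB peak, that at chr6:82690221-82690833 stood at place 5407 and overlapped BATF, and that at chr6:82713966-82714578 stood at place 24370 with neither factor. The 2 IRF4 peaks found in both genotypes stood higher in *Junb*-deficient cells. They moved from 24.3% to 9.24% and from 28.8% to 13.7% of the list, and the second overlapped a JunB peak. *Hk1*, the constitutive hexokinase, had 1 JunB peak 626 bp from a TSS, no BATF peak, 2 *Junb*-sufficient IRF4 peaks, both kept, and 3 *Junb*-deficient ones.

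Fewer peaks were listed at the remaining genes of upper glycolysis. *Gpi1*, glucose-6-phosphate isomerase, had 1 IRF4 peak in each genotype, and these were 37632 bp apart. The *Junb*-deficient one lay at the TSS of the neighbour *Pdcd2l*. *Aldoa*, the aldolase of most tissues, had 1 JunB peak 1228 bp upstream and an IRF4 peak 46 bp from a TSS that was listed only in *Junb*-sufficient cells. A *Junb*-deficient IRF4 peak near *Aldoa* was 9887 bp away and nearest *Fam57b*.

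In lower glycolysis, triple sites were found at *Pgam1* and *Eno1*. *Pgam1*, phosphoglycerate mutase, had 1 JunB, 1 BATF, 1 *Junb*-sufficient IRF4, and 2 *Junb*-deficient IRF4 peaks. All of them lay nearest *Rrp12*, a ribosome assembly gene, so their gene of action is not known from these data. IRF4 at its triple site fell from 28.2% to 80.1% of the list. *Eno1*, enolase, had 3 JunB, 2 BATF, 3 *Junb*-sufficient IRF4, and 1 *Junb*-deficient IRF4 peaks. Its intronic triple site kept its IRF4 peak (31.6% and 28.6% down). The 2 IRF4 peaks that overlapped no JunB peak stood at 85.6% and 93.9% and were not listed in *Junb*-deficient cells. That at 85.6%, chr4:149622022-149622634, ended just short of a JunB peak at chr4:149622639-149622789. *Ldha*, the lactate dehydrogenase subunit, had 3 JunB peaks, of which 1 lay 84 bp from a TSS within an exon and 1 overlapped an IRF4 peak. This site was nearest *Gm5331*, with the JunB peak 122 bp from its TSS, and the IRF4 peak rose from 56.1% to 32.9% of the list.

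*Tpi1*, triose phosphate isomerase, had 2 BATF peaks, 1 *Junb*-sufficient and 2 *Junb*-deficient IRF4 peaks, and no JunB peak. Its *Junb*-sufficient IRF4 peak lay 172 bp from a TSS of *Usp5*, a deubiquitinase gene. *Gapdh*, glyceraldehyde-3-phosphate dehydrogenase, had a JunB peak 399 bp from a TSS with neither partner. An IRF4 peak at the *Gapdh* TSS was listed only in *Junb*-deficient cells, at 55.2%, and the IRF4 peak of both genotypes lay 58 bp from the TSS of *Iffo1*. *Pgk1*, phosphoglycerate kinase, had 1 IRF4 peak, 145 bp upstream of its TSS, which was kept (62.7% and 80.2% down).

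*Hif1a* encodes the oxygen-regulated subunit of HIF-1, a transcription factor that raises glycolytic genes. It had 10 JunB, 3 BATF, 3 *Junb*-sufficient IRF4, and 3 *Junb*-deficient IRF4 peaks. As many JunB peaks were found at 58 of all protein-coding genes (0.259%), and the window of *Hif1a* spanned 76.3 kb with 4 TSSs. The 3 IRF4 peaks were triple sites and among the highest-placed at the 32 genes. The site 13174 bp upstream, printed above, stood at place 852 of the JunB list, 473 of 31093 in the *Junb*-sufficient IRF4 list, and 559 of 29033 in the *Junb*-deficient list. The intronic site at chr12:75005705-75005855 stood at places 1420, 1794, and 536 of these lists. That at chr12:75014337-75014487 stood at 1150, 2661, and 1260. No *Hif1a* IRF4 peak was missing in *Junb*-deficient cells, and 2 of the 3 stood higher there. The other 7 JunB peaks overlapped no BATF or IRF4 peak and stood from place 8915 to place 23607.

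**Figure D3:**
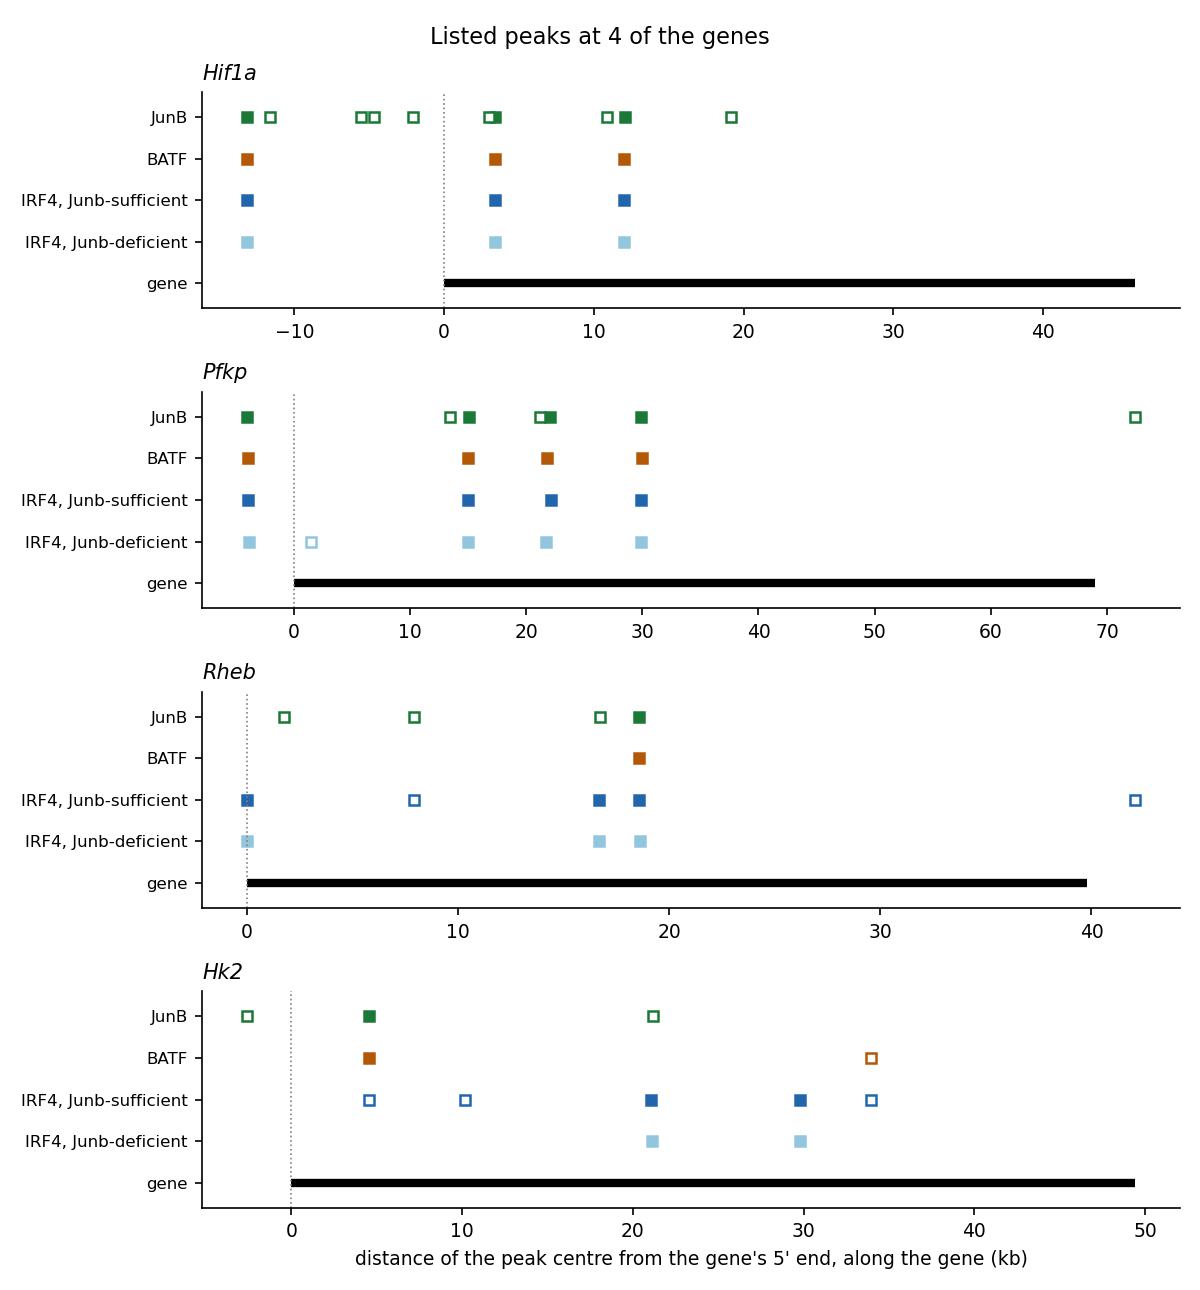
Peaks at *Hif1a*, *Pfkp*, *Rheb*, and *Hk2* by the distance of their centre from the 5′ end of the gene, along the gene (horizontal axis, kb), in each library (rows), with the gene as a black bar. Filled JunB and BATF squares overlap both other factors, and filled IRF4 squares overlap an IRF4 peak of the other genotype. All IRF4 squares of *Hif1a* are filled, and 3 of the 5 *Junb*-sufficient IRF4 squares of *Hk2* are open.

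*Pdk1* encodes a kinase that closes the entry of pyruvate into mitochondria. It had 1 triple site in an intron, where IRF4 stood at 28.3% and 39.2% of the lists of both genotypes. It had 2 *Junb*-sufficient IRF4 peaks, both kept, and 3 *Junb*-deficient ones. The lactate transporters MCT1 and MCT4 are encoded by *Slc16a1* and *Slc16a3*. *Slc16a1* had 1 BATF and 1 IRF4 peak, which overlapped 9642 bp upstream, and no IRF4 peak in *Junb*-deficient cells. *Slc16a3* had 3 IRF4 peaks, all kept, and 1 JunB peak with neither partner, which lay nearest *Ccdc57*.

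The genes of the mTOR complexes and their control had 14 JunB, 6 BATF, 19 *Junb*-sufficient IRF4, and 15 *Junb*-deficient IRF4 peaks, and 5 of these 7 genes had a triple site, beside 20.0% of all protein-coding genes. Of the 19 IRF4 peaks, 8 were not listed in *Junb*-deficient cells, beside 33.6% of IRF4 peaks at all protein-coding genes. In the other roles this ran from 1 of 9 (lactate export, pyruvate gate, and HIF-1) to 3 of 6 (SREBP). No interval is given for a single role. *Rheb*, the small GTPase that switches mTORC1 on, had 4 JunB, 1 BATF, 5 *Junb*-sufficient IRF4, and 3 *Junb*-deficient IRF4 peaks. Its highest-placed JunB peak, printed above, was an intronic triple site at place 885 of 29659. IRF4 stood there at 8.22% and 9.02% of the lists of both genotypes. An IRF4 peak 9 bp from a *Rheb* TSS, with no JunB or BATF peak, was also high in both lists (6.88% and 3.94%). The IRF4 peak at chr5:24340195-24340807 overlapped the lowest-placed JunB peak of *Rheb* (place 27376) and was listed only in *Junb*-sufficient cells, at place 17408.

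*Rptor* encodes Raptor, the subunit that defines mTORC1 and recruits its substrates. It had 4 JunB, 2 BATF, 5 *Junb*-sufficient IRF4, and 7 *Junb*-deficient IRF4 peaks in a window of 180 kb with 13 TSSs, the widest of the 32. The IRF4 peak of its triple site, in an intron, was kept but fell from 31.3% to 99.7% of the list, the largest fall at the 32 genes. An intronic IRF4 peak shared with BATF alone fell from 33.2% to 81.7%. At chr11:119717778-119718390, 461 bp from a TSS within the gene, an IRF4 peak that overlapped JunB was listed only in *Junb*-sufficient cells (place 19756). Against this, 3 IRF4 peaks were listed only in *Junb*-deficient cells, from 72.9% to 95.5% down. A kept intronic IRF4 peak that overlapped no JunB peak rose from 84.4% to 52.9%. *Rptor* therefore had lower and higher IRF4 places in the same gene.

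*Mtor*, the kinase, had 1 JunB and 1 BATF peak that formed a triple site upstream of the gene, nearest the TSS of another gene. IRF4 fell there from 57.1% to 85.5% of the list. It had 4 IRF4 peaks in *Junb*-sufficient cells, of which 2 were kept, 1 of them 248 bp upstream of the *Mtor* TSS. Of those that were not, 1 lay 717 bp from the *Exosc10* TSS. *Rictor*, the defining subunit of mTORC2, had 3 JunB, 1 BATF, 2 *Junb*-sufficient IRF4, and 1 *Junb*-deficient IRF4 peaks. Its intronic triple site was at place 1155 of the JunB list and held TGANTCA, with IRF4 at 17.7% and 24.7%. *Rps6kb1*, the S6 kinase that mTORC1 activates, had 2 JunB peaks, both with IRF4. The JunB peak 43 bp from its TSS kept its IRF4 peak, which lay between *Rps6kb1* and *Tubd1* and rose from 49.5% to 33.6%. The triple site printed above had an IRF4 peak at chr11:86320056-86320668, place 8981, the highest-placed of those that overlapped JunB and were missing in *Junb*-deficient cells. The nearest *Junb*-deficient IRF4 peak lay 19503 bp away.

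The products of *Tsc1* and *Tsc2* form the complex that inactivates Rheb. Neither gene had a JunB or BATF peak, and their IRF4 peaks differed in the opposite way. *Tsc1* had 0 IRF4 peaks in *Junb*-sufficient cells and 1 in *Junb*-deficient cells, 300 bp upstream of its TSS at place 19715 of 29033. *Tsc2* had 1 in *Junb*-sufficient cells, 21 bp from its TSS at place 29906 of 31093, and 0 in *Junb*-deficient cells.

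Of the amino acid transporters, *Slc7a5* and *Slc3a2* encode the light and heavy chains of the leucine transporter LAT1, and *Slc1a5* encodes the glutamine transporter ASCT2. *Slc7a5* had 1 JunB, 2 BATF, 3 *Junb*-sufficient IRF4, and 1 *Junb*-deficient IRF4 peaks. Its triple site, printed above, had an IRF4 peak at chr8:124430156-124430768, place 13126, that was not listed in *Junb*-deficient cells. The nearest *Junb*-deficient IRF4 peak lay 1498 bp away, at the promoter. An intronic IRF4 peak shared with BATF alone was not listed either, 9387 bp from the nearest. The IRF4 peak 430 bp upstream of the TSS, with neither factor, was kept and rose from 56.2% to 43.8%. *Slc3a2* had 1 JunB, 3 BATF, and 4 IRF4 peaks in each genotype. Its intronic triple site rose from 23.7% to 15.2% of the IRF4 list. At its TSS, an IRF4 peak was listed only in *Junb*-deficient cells (31.4% down), the highest-placed of the 18 such peaks, and overlapped a BATF peak. *Slc1a5* had 1 JunB peak, 100 bp upstream of its TSS, with no IRF4 peak in *Junb*-sufficient cells. An IRF4 peak overlapped it in *Junb*-deficient cells, at place 14219 of 29033, and was the 1 peak of that kind at a JunB site among the 32 genes.

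*Srebf1* and *Srebf2*, which encode the SREBP factors of fatty acid and sterol synthesis, had no JunB peak. *Srebf1* had 3 IRF4 peaks in each genotype, of which 2 were shared, both within 1 kb of a TSS of the gene, at 35.7% and 43.7% of the *Junb*-sufficient list and 52.9% and 70.7% of the *Junb*-deficient list. *Srebf2* had 1 BATF peak 123 bp upstream of its TSS, which overlapped an IRF4 peak that was listed only in *Junb*-sufficient cells. It had 3 IRF4 peaks in *Junb*-sufficient cells and 1 in *Junb*-deficient cells, the latter at the TSS of *Ccdc134*.

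IRF4 was then compared between the genotypes over the whole set. IRF4 peaks were called kept when they overlapped an IRF4 peak of *Junb*-deficient cells by at least 1 bp. Of 74 IRF4 peaks, 23 had no such counterpart (31.1%, interval 20.8 to 42.9%), beside 33.6% at all protein-coding genes. At JunB peaks it was 5 of 27 (18.5%, interval 6.30 to 38.1%), beside 23.3%, and away from JunB 18 of 47 (38.3%, interval 24.5 to 53.6%), beside 39.4%. At sites of JunB and BATF it was 3 of 21 (14.3%, beside 16.0%). In the other direction, 18 of 69 *Junb*-deficient IRF4 peaks had no *Junb*-sufficient counterpart (26.1%, interval 16.3 to 38.1%), beside 30.5%, 17 of them away from JunB peaks. If the BATF and IRF4 lists were exchanged, as the antibody field would have it, the last share was 66.7% (interval 54.3 to 77.6%), beside 68.8% at all protein-coding genes, and the first 32.4% (interval 17.4 to 50.5%), beside 25%. IRF4 peaks were thus absent from the other list in both directions, and the intervals given here included the background shares. With 1 library per genotype there was no test of a difference between genotypes.

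By gene, 16 of the 32 had an IRF4 peak that was listed only in *Junb*-sufficient cells (50%), beside 30.2% of all protein-coding genes. At 5, such a peak overlapped JunB (15.6%, beside 8.28%). These were *Hk2*, *Rheb*, *Rptor*, *Rps6kb1*, and *Slc7a5*. As many genes, 16, had an IRF4 peak that was listed only in *Junb*-deficient cells, beside 28.3%. The 32 genes had a mean of 2.31 *Junb*-sufficient and 2.16 *Junb*-deficient IRF4 peaks, beside 1.20 and 1.17 over all protein-coding genes. The part of these higher peak numbers in the counts was not tested. At 10 of the 32 genes the *Junb*-sufficient list held more IRF4 peaks, beside 20.5% of all protein-coding genes. At 11 the *Junb*-deficient list held more, beside 18.1%, and at 11 the numbers were equal. For the equal numbers and the counts that follow, no share of all protein-coding genes is given here. An IRF4 peak was present in both genotypes at 28 of the 32. Among the 30 genes with a *Junb*-sufficient IRF4 peak, 14 kept all of them and 4 kept none (*Gpi1*, *Aldoa*, *Slc16a1*, and *Tsc2*), each of the 4 with 1 peak and none of those at a JunB peak.

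**Figure D4:**
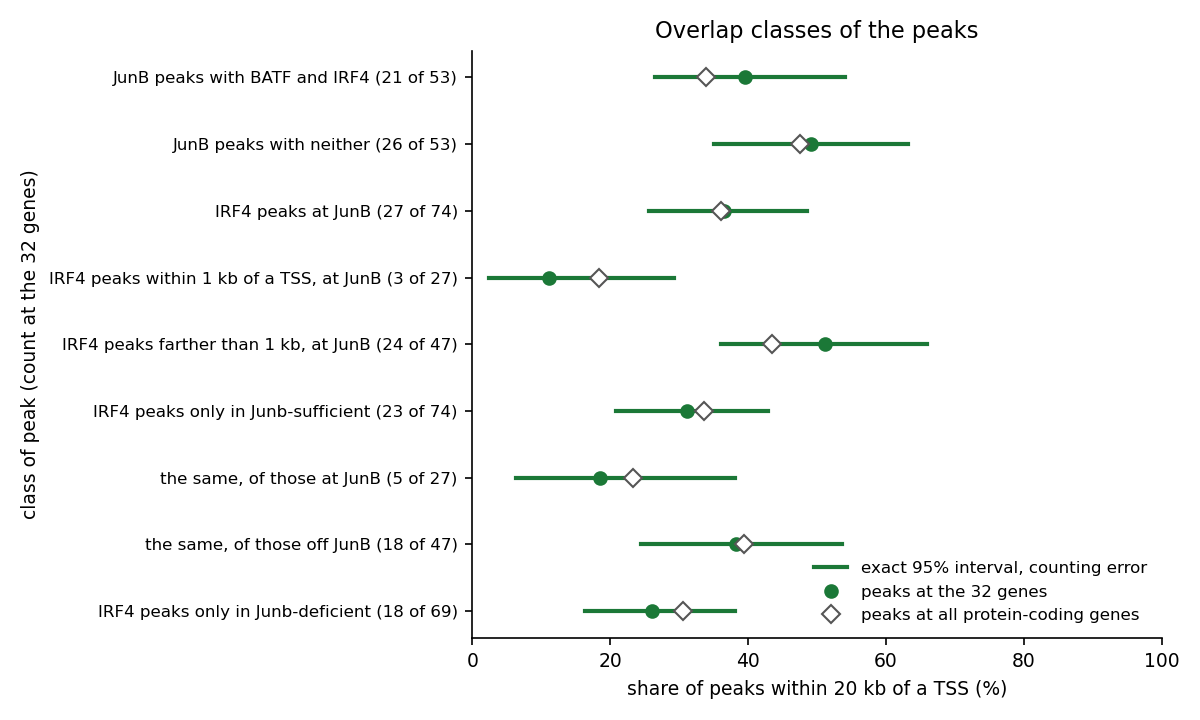
Share of peaks (%, horizontal axis) in 9 overlap classes (rows) for the 32 genes (filled circles, with exact 95% intervals for counting error) and for all protein-coding genes (open diamonds). The diamond lies within the interval in every row, for example 33.6% against 20.8 to 42.9% for IRF4 peaks listed only in *Junb*-sufficient cells.

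The same was counted in the other 91 genes of the pathways. An IRF4 peak listed only in *Junb*-sufficient cells lay at 38 of them (41.8%), beside 30.2% of all protein-coding genes. Such a peak at JunB lay at 13 (14.3%, beside 8.28%), and an IRF4 peak listed only in *Junb*-deficient cells at 32 (35.2%, beside 28.3%). These 91 genes had a mean of 1.75 *Junb*-sufficient and 1.67 *Junb*-deficient IRF4 peaks, beside 1.20 and 1.17 over all protein-coding genes, and a median window of 41.0 kb, beside 40.1 kb. The part of these higher peak numbers in the shares was not tested. The 13 included *Pfkfb4*, an isoform of the *Pfkfb3* enzyme, with 2 such peaks, and the sterol and lipid genes *Sqle*, *Acaca*, and *Scd1*. Amino acid transporters among them were *Slc38a2* and *Slc43a2*. Genes of mTORC1 control and output among them were *Castor1*, *Depdc5*, *Fnip1*, *Eif4e*, *Akt2*, and *Pdpk1*, each with 1 such peak.

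A missing peak can be a weak peak near the calling limit. In the *Junb*-sufficient IRF4 list, peaks at all protein-coding genes lacked a counterpart in 18.4% of cases in the first 50% of the list and in 48.0% in the last 50%. At the 32 genes these shares were 8 of 38 (21.1%) and 15 of 36 (41.7%). The 23 missing peaks stood from 17.4% to 96.2% down the list (median 59.7%), and the 18 that were listed only in *Junb*-deficient cells from 31.4% to 95.5% (median 70.5%). None of the 23 and none of the 18 had an IRF4 peak of the other genotype within 1 kb, and 4 and 2 had one within 5 kb. Tag counts at these places were not analysed here, so a peak that is not listed may still hold IRF4 below the limit.

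Among the 51 kept IRF4 peaks, places moved both ways. Lower places in *Junb*-deficient cells were found for 26 and higher ones for 25, with a median shift of 0.301 percentage points (quartiles -8.97 and 11), beside 0.109 at all protein-coding genes. At JunB peaks, 13 of 22 stood lower (59.1%, beside 60.2%), with a median shift of 1.14 points, beside 1.90. Away from JunB, 13 of 29 stood lower (44.8%, beside 43.6%), with a median of -2.94 points, beside -2.61. Shifts beyond 20 points were 6 falls and 4 rises. The falls were at *Rptor* (2 peaks), *Pgam1*, *Mtor*, *Slc2a3*, and *Srebf1*, and the rises at *Rptor*, *Pfkfb3*, *Ldha*, and *Pfkl*.

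**Figure D5:**
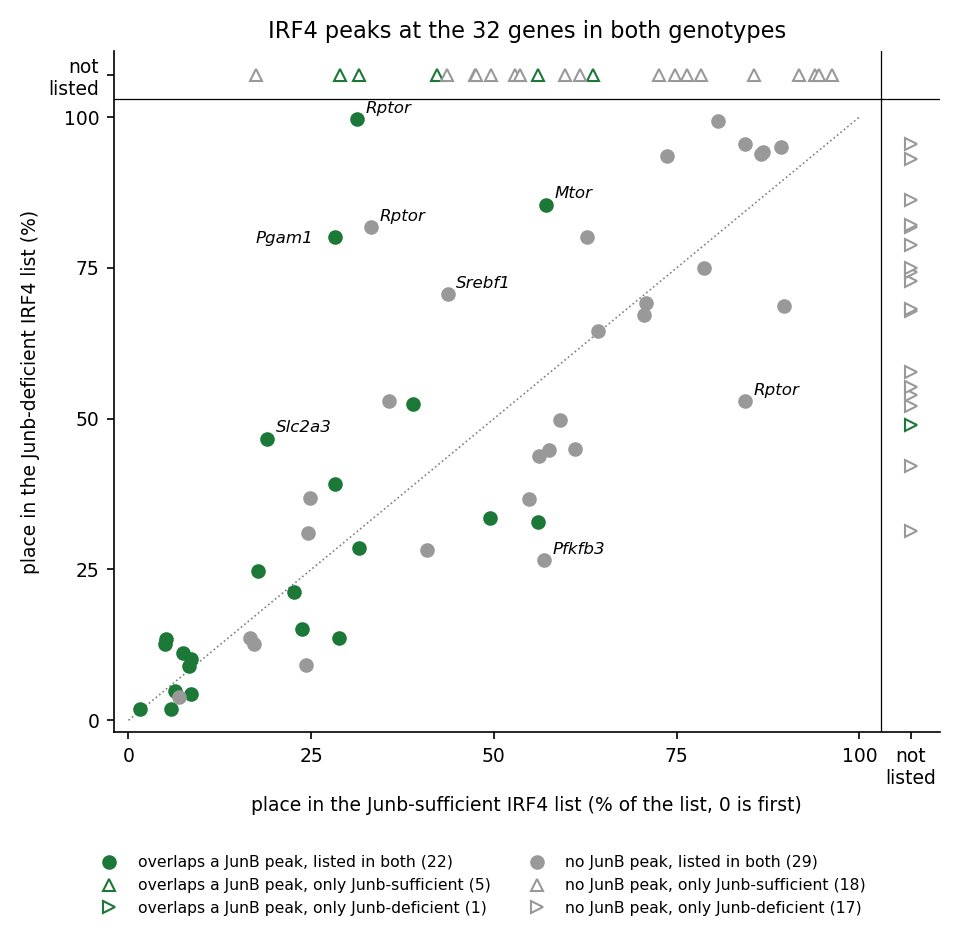
Place of each IRF4 peak at the 32 genes in the *Junb*-sufficient list (horizontal axis, % of the list) and the *Junb*-deficient list (vertical axis, %), with peaks listed in 1 genotype alone outside the black lines. Green marks peaks that overlap JunB, and the largest shifts are named. The 3 *Hif1a* and 4 *Pfkp* peaks lie at the lower left, and 5 green and 18 grey triangles at the top have no *Junb*-deficient counterpart.

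As listed, IRF4 peaks were more often near TSSs than JunB peaks were. The JunB list had narrower peaks and a lower tag limit, and the part of these settings in the difference was not tested. Within 1 kb of a protein-coding TSS lay 27 of the 74 IRF4 peaks (36.5%, interval 25.6 to 48.5%, beside 29.2%), 25 of the 69 *Junb*-deficient IRF4 peaks (36.2%, beside 33.3%), and 7 of the 53 JunB peaks (13.2%, interval 5.48 to 25.3%, beside 13.4%). JunB overlapped 3 of these 27 IRF4 peaks (11.1%, interval 2.35 to 29.2%, beside 18.4%) and 24 of the 47 farther away (51.1%, interval 36.1 to 65.9%, beside 43.4%). Of the 32 genes, 16 had an IRF4 peak within 1 kb of their own TSS in *Junb*-sufficient cells (50%, beside 24.8%). In *Junb*-deficient cells 16 had one (beside 27.2%), and 11 had one in both genotypes (34.4%, beside 19.5%). The 11 were *Hk1*, *Pfkl*, *Pfkm*, *Pgk1*, *Slc16a3*, *Mtor*, *Rptor*, *Rheb*, *Rps6kb1*, *Slc7a5*, and *Srebf1*. Only *Junb*-sufficient cells had one at 5 genes (15.6%, beside 5.22%), *Slc2a1*, *Aldoa*, *Eno1*, *Tsc2*, and *Srebf2*. Only *Junb*-deficient cells had one at another 5 (15.6%, beside 7.68%), *Slc2a3*, *Gapdh*, *Tsc1*, *Slc3a2*, and *Slc1a5*. JunB peaks lay within 1 kb of the TSS of 6 genes (18.8%, beside 7.69%), which were *Hk1*, *Gapdh*, *Ldha*, *Rptor*, *Rps6kb1*, and *Slc1a5*. Any annotated TSS of a gene counted here, and the 32 genes have more of them (median 4.5, beside 2). The part of TSS number in these promoter counts was not tested.

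Assignment by distance does not show which gene a site acts on. The nearest protein-coding TSS was that of 1 of the 32 genes for 48 of 53 JunB peaks, 28 of 34 BATF peaks, 61 of 74 *Junb*-sufficient and 52 of 69 *Junb*-deficient IRF4 peaks. All *Junb*-sufficient IRF4 peaks of *Tpi1*, *Gapdh*, *Pgam1*, and *Ldha* and all JunB peaks of *Pgam1*, *Slc16a3*, and *Mtor* lay nearest another gene.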

How the data were processed

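Reads were aligned by the authors with Bowtie2 to mm9, and peaks were called in each library alone with HOMER (4.8 in the submitters' processing notes), at a false discovery rate of 0.001, 4-fold over the surrounding 10 kb, and at most 1 tag per bp, which left 16.0 M to 17.9 M tags (M, mega). The deposited score is 1 for every peak and was not used. Peaks were read as deposited. TSSs of protein-coding genes (70064 positions) came from GENCODE vM1 on NCBIM37, the assembly of mm9. Peaks were assigned and overlapped in Python 3.11.15 with NumPy 2.4.6, with SciPy 1.17.1 for intervals and matplotlib 3.10.9 for figures. Overlap and assignment were tested on simulated data, where 100.0% of 20000 peaks and of 300 genes were recovered. The 32 genes, the pathway list (95 names, 91 matched), and the tests were chosen with earlier results of these data known. All 32 genes are named and pathway genes are named where an IRF4 peak at JunB was missing in *Junb*-deficient cells, or for the most triple sites. Motifs were searched in 151 bp around peak centres. No test between genotypes was possible with 1 library each. A second run of the ChIP-seq was not analysed here. Some genes that met the rule for naming are not reported here.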

Additional observations from a re-analysis of the deposited data

How the results depend on the processing

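The counts of genes and shares of peaks were recomputed under 57 combinations of result and setting. Of these, 51 gave a count within 1.5 times the reported one or a share within its interval, and 6 did not. Keeping only the first 50% of each list, and so fewer peaks, left JunB peaks at 12 genes, BATF peaks at 7, IRF4 peaks at 19 in each genotype, and triple sites at 4. No share of all protein-coding genes is given for this setting. Whether these genes stood above the background among the higher-placed peaks was therefore not tested. Exchanging the BATF and IRF4 lists, as the antibody field of the labels would have it, raised the share of *Junb*-deficient IRF4 peaks without a counterpart to 66.7%, and put BATF peaks at 30 genes and *Junb*-sufficient IRF4 peaks at 20, the reverse of the reported counts. Requiring centres within 100 bp raised that share to 37.7% (beside 42.6% at all protein-coding genes) and that of *Junb*-sufficient IRF4 peaks to 41.9% (beside 45.1%). Counting IRF4 peaks of the other genotype within 1 kb as counterparts, a setting chosen after seeing the data, changed neither share. No paired analysis was possible because each condition had 1 library, and no replicate could be left out. Depth limits the lists to peaks of at least 10 or 19 tags, and peaks below these limits could not be seen.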
